A study of Mus musculus with 42 samples.

Results

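Chemokines are small secreted proteins that direct the movement of white blood cells, and their receptors are proteins of the cell surface, most of which signal through G proteins. The genes described here are those whose symbol on the array is Ccl, Cxcl, Ccr or Cxcr with a number, together with Cx3cl1, Cx3cr1, Xcl1 and Xcr1. By that rule 54 of the 21186 genes on the array were members, 35 of them ligands and 19 receptors, read by 70 probes, and 38 members had 1 probe. A set is here the 3 arrays of 1 group in 1 tissue, and there were 14 sets. In 1 set or more, 39 of the 54 (26 ligands and 13 receptors) had a probe that the scanner software marked well above background on every array, and 20 had one on all 42 arrays. The other 15 met that condition in no set: Ccl1, Ccl3, Ccl20, Ccl22, Ccr1, Ccr3, Ccr4, Ccr8, Ccr10, Cxcl2, Cxcl3, Cxcl5, Cxcl15, Cxcl17 and Cxcr1.

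Levels were read on single-colour arrays in aorta and skeletal muscle of 7 groups of male mice, with 3 arrays per group and tissue and 42 in all. The methods give the age of the mice as 18 to 20 weeks and do not say at which point of the study. Healthy mice were C57BL/6 and received saline. Diabetic mice were KK/Ay, a strain with the yellow agouti allele in which obesity and diabetes arise without treatment, and also received saline. Macroangiopathy mice were KK/Ay mice whose diet was rich in fat and whose water held 0.2 mg/ml of L-NAME for 8 weeks, and they then received saline. L-NAME blocks the enzymes that make nitric oxide. The SHENQI, yangyinyiqi, huoxue and rosiglitazone groups were mice of the same macroangiopathy model that received 1 of 3 herbal preparations or rosiglitazone, an agonist of the nuclear receptor PPAR gamma, by gavage for 8 weeks. The 6 KK/Ay groups thus share a strain that the healthy group lacks, and strain and diabetes cannot be told apart in any comparison with the healthy mice. The methods state that tissue was taken from 3 mice per group, but the labels do not say whether aorta and muscle came from the same mice, so P values measure the spread between these arrays.

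By textbook grouping, inflammatory chemokines such as Ccl2, Ccl5, Cxcl9 and Cxcl10 are induced in injured or infected tissue and draw monocytes, T cells and neutrophils out of the blood. Homeostatic chemokines such as Cxcl12, Cxcl13, Ccl19 and Ccl21a are made without injury and place cells in bone marrow and lymphoid tissue. Monocytes enter the wall of atherosclerotic arteries through Ccr2 and Cx3cr1, and Cxcl12 with its receptors Cxcr4 and Cxcr7 (also named Ackr3) acts on the endothelium and on progenitor cells.

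Cxcl9 and Cxcl10, a pair of ligands of the receptor Cxcr3 induced by interferon, were lower in diabetic than in healthy arrays, and Cxcl12 was higher, so the 250 bases before the annotated start of these 3 genes are shown first. They are RefSeq sequences of build GRCm38.p6, printed on the strand of the gene, at chr5:92328080-92328329 for Cxcl9 and chr5:92348890-92349139 for Cxcl10, both on the minus strand, and at chr6:117168285-117168534 on the plus strand for Cxcl12. Capitals mark the letters GGGANNNNCC, a pattern of NF-kB type, and GAAANNGAAA, a pattern of the interferon response, each searched on both strands.
Cxcl9: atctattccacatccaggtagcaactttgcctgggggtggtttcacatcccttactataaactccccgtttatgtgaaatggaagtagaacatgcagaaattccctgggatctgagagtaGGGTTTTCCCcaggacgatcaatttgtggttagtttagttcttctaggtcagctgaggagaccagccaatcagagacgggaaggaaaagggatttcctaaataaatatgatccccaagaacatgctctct
Cxcl10: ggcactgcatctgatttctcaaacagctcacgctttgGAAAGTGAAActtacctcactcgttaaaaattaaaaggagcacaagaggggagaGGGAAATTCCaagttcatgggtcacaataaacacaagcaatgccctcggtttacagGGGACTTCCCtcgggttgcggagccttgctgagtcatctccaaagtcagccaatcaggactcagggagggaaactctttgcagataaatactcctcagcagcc
Cxcl12: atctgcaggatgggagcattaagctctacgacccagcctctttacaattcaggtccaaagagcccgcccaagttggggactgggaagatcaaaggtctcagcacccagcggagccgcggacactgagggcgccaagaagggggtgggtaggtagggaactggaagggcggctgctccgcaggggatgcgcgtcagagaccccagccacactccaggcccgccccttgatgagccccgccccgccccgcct

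Cxcl10 held GGGACTTCCC from 103 to 94 bases before the start, which reads as a match on both strands, GGGAAATTCC from 159 to 150 bases before it, and GAAAGTGAAA from 213 to 204 bases before it. Cxcl9 held 1 match, GGGTTTTCCC, from 130 to 121 bases before the start and on the other strand. The window of Cxcl12 held neither pattern, which says only that these letters are absent from those bases. The NF-kB type pattern was present in 16 of the 40 members for which a promoter was at hand and in 17.6% of 32851 promoters of the same length. The interferon type pattern was present in 3 of the 40, Ccl19, Cxcl10 and Cxcl14, and in 2.98% of all promoters, and a STAT type pattern, TTCNNNGAA, in 3 (Ccl17, Ccr6 and Cxcl14) and in 7.02%. Among the members with no entry in the table were Ccl2, Ccl4, Ccl5, Ccl7, Ccl11, Ccl24, Ccr7, Ccr10, Cxcl5, Cxcl11, Cxcl16, Cxcl17 and Cxcr5.

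The tissues carried the markers of their labels on most arrays, and markers of other tissues and cells were read beside them. Between 20200 and 30274 of 41174 probes per array were well above background. Ckm, the creatine kinase of muscle fibres, had log2 levels of 15.35 to 16.65 on the muscle arrays and of 6.23 to 14.15 on the aorta arrays. Myh11, the myosin of smooth muscle, had a median log2 level of 14.82 over the 21 aorta arrays and of 9.85 over the muscle arrays. The array labelled healthy aorta 1 stood apart, with the lowest aorta levels of Myh11 (9.15) and Acta2 (8.99) and the highest of the B cell gene Cd79b (14.91) and the neutrophil gene S100a8 (14.94). S100a8 was also high on healthy muscle 3, at a log2 level of 14.21 against a median of 7.62 over the muscle arrays, and Glycam1, a gene of lymph node vessels, was high on healthy muscle 1 (13.07 against 5.55). Ucp1, a gene of brown fat, had log2 levels of 14.98 to 17.51 on the aorta arrays and of 5.29 to 8.93 on the muscle arrays. Whole tissue was hybridized, so fewer cells of a type and less RNA per cell cannot be told apart, and results are given below with and without the arrays that stand apart.

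To compare diabetic with healthy mice, both tissues were fitted together, with tissue as a term, over 12 arrays. Inflammatory ligands were lower in the diabetic arrays: Cxcl10, Ccl5, Cxcl9, Ccl9, Ccl8, Ccl4 and Ccl6 were called lower. A call is an unadjusted P below 0.05, as in the methods of the study. Cxcl12, Cxcl14, Ccl28 and Ccl24 were called higher. Of 37 members tested, 13 were called, 4 higher and 9 lower, where 22.1% of all 14808 genes tested were called, 12.7% higher and 9.32% lower, so the members held a larger share of lower calls and a smaller share of higher calls than all genes. After Benjamini-Hochberg adjustment over all genes 3 members passed in limma's test, Cxcl12, Cxcl10 and Ccl5, against 4.50% of all genes. The median log2 difference of the members was -0.39, with 29 of the 37 below 0, and that of all genes was 0.03. The members' median was -0.76 on the processed signal of the scanner and -0.85 on the authors' values. It was -0.20 without healthy aorta 1, the 1 array here among the 6 aorta arrays of highest B cell marker level. It was -0.24 without healthy aorta 1 and healthy muscle 3. Of the 37 members, 8 passed the filter on dim probes through 1 of the 2 groups alone, which can force a difference on them, so these counts are a description. Of those 8, Ccl4, Ccr2, Xcl1 and Cx3cr1 passed through the healthy arrays and Ccl28, Ccr7, Cxcl11 and Cxcr5 through the diabetic arrays, and Ccl4, Ccr2 and Ccl28 were called.

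Cxcl12 is the ligand of Cxcr4 and Cxcr7 and keeps stem cells in the marrow. In aorta its log2 level was 10.55, 10.23 and 10.33 on the healthy arrays and 10.74, 11.11 and 11.06 on the diabetic arrays. In muscle it was 10.39, 10.32 and 9.8 on the healthy arrays and 10.89, 10.58 and 10.8 on the diabetic arrays. Every diabetic array was above every healthy array in both tissues, and Cxcl12 was the 1 member of which that held (3.54% of all genes). The log2 difference was 0.60 ± 0.13 (SE; adjusted P = 0.0269), with 0.60 in aorta and 0.59 in muscle. Its 2 probes lie at chr6:117131227-117131286 and chr6:117124474-117124533 (coordinates of the array, build mm9) and match different transcript variants. On the brighter probe alone the difference was 0.57 and was not called.

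Cxcl10, probed at chr5:92775781-92775840, is induced by interferon gamma and draws T cells that carry Cxcr3. Its log2 level in aorta was 11.1, 7.42 and 8.67 on the healthy arrays and 6.82, 6.98 and 6.68 on the diabetic arrays. In muscle, Cxcl10 read 7.66, 7.06 and 8.41 on the healthy arrays and 6.14, 5.48 and 5.34 on the diabetic arrays, of which 1 was well above background. The diabetic arrays lay below the healthy arrays in both tissues. The log2 difference was -2.15 ± 0.49 (SE; adjusted P = 0.0312), with -2.24 in aorta and -2.06 in muscle, the latter in part against background. Over both tissues it was -2.99 on the processed signal and -3.26 on the authors' values. The healthy aorta arrays spread over more than 3 log2 units, with healthy aorta 1 the highest, while the 3 diabetic aorta arrays lay close together.

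Cxcl9 is the neighbouring ligand of Cxcr3, probed at chr5:92752191-92752250. Its log2 level in aorta was 12.07, 8.6 and 10.06 on the healthy arrays and 8.38, 8.46 and 8.33 on the diabetic arrays. In muscle, Cxcl9 read 8.95, 7.9 and 8.13 on the healthy arrays and 7.1, 6.65 and 6.93 on the diabetic arrays. As for Cxcl10, no diabetic array reached a healthy array in either tissue. The log2 difference was -1.64 ± 0.45 (SE; adjusted P = 0.06), called but not past adjustment, although in muscle alone its difference of -1.43 passed (adjusted P = 0.0491). In the list of 4 genes of the interferon axis (Cxcl9, Cxcl10, Cxcl11 and Cxcr3) these 2 were called lower and none higher, with a median log2 difference of -1.45.

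Ccl5, probed at chr11:83339296-83339355 and by a second probe with no position, draws T cells and monocytes. In aorta its log2 level was 13.71, 9.01 and 10.62 on the healthy arrays and 9.11, 8.21 and 8.31 on the diabetic arrays, so the groups overlapped. In muscle, Ccl5 read 10.3, 8.16 and 9.6 on the healthy arrays and 6.6, 6.77 and 6.55 on the diabetic arrays, with no overlap. The log2 difference was -2.64 ± 0.64 (SE; adjusted P = 0.0396), with -2.57 in aorta and -2.71 in muscle, and the muscle difference passed by itself (adjusted P = 0.0392). Ccl4, another inflammatory ligand, was lower on every diabetic array of both tissues, with a log2 difference of -1.54 (adjusted P = 0.151). No diabetic muscle array read Ccl4 above background, and healthy muscle was at least 2.32-fold higher, or at least 1.36-fold without healthy muscle 3. This bound sets the mean of the healthy arrays against the lowest signal well above background on each diabetic array, or the probe's own signal where that was higher.

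**Figure D1:**
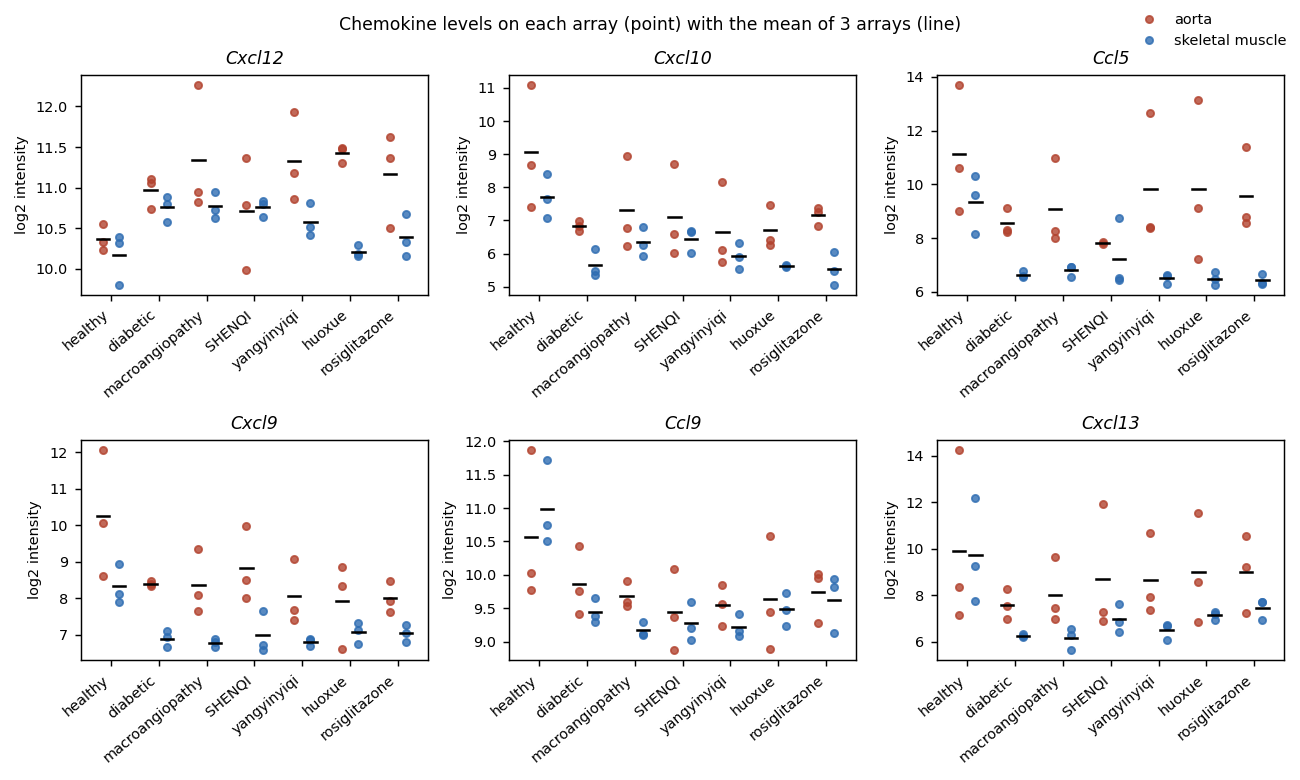
The log2 level of Cxcl12, Cxcl10, Ccl5, Cxcl9, Ccl9 and Cxcl13 is plotted for each of the 42 arrays by group (x axis), with aorta and skeletal muscle apart, where each point is 1 array and each short line the mean of 3. Cxcl12 sat higher on all 6 diabetic than on the healthy arrays of the same tissue, and healthy aorta 1 was the highest healthy aorta array in each of the 6 panels.

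Ccl9 and Ccl6, ligands of Ccr1 that macrophages make, were lower in muscle. For Ccl9, at chr11:83388223-83388282, the log2 level in muscle was 10.74, 10.5 and 11.72 on the healthy arrays and 9.3, 9.65 and 9.39 on the diabetic arrays. In aorta its log2 level was 11.87, 9.78 and 10.03 on the healthy arrays and 9.76, 10.43 and 9.42 on the diabetic arrays. The groups were apart in muscle and overlapped in aorta. The log2 difference over both tissues was -1.12 ± 0.37 (SE; adjusted P = 0.108), with -1.54 in muscle, and that of Ccl6 was -0.90 (adjusted P = 0.219), with -1.63 in muscle. Ccl8, a monocyte chemotactic protein by its older name, had a log2 difference of -2.05 ± 0.73 (SE; adjusted P = 0.136), with healthy arrays from 9.43 to 14.24 and overlap in both tissues.

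Cxcl13, the ligand of Cxcr5 that gathers B cells into follicles, had the largest log2 difference among the called members, -2.91 ± 1.07 (SE; adjusted P = 0.147), and also the widest spread. In aorta its log2 level was 14.26, 7.15 and 8.37 on the healthy arrays and 8.26, 7.56 and 6.98 on the diabetic arrays. In muscle, Cxcl13 read 9.27, 7.76 and 12.2 on the healthy arrays and 6.32, 6.21 and 6.24 on the diabetic arrays. The muscle groups did not overlap. Ccl19, the ligand of Ccr7 that T cells and dendritic cells follow into lymph nodes, was higher in diabetic muscle: its log2 level was 10.82, 9.34 and 9.67 on the healthy arrays and 11.73, 11.41 and 11.68 on the diabetic arrays. That log2 difference of 1.67 ± 0.37 (SE) was called in muscle alone (adjusted P = 0.0619), and the difference in aorta was 0.03. Ccl19, Ccl21a and Ccl27a have near-identical copies in the mouse genome, so their probes may read more than 1 gene.

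Cxcl14, a ligand made without injury in muscle, fat and skin and probed at chr13:56390078-56390137, was higher in diabetic aorta. Its log2 level there was 7.81, 9.02 and 8.85 on the healthy arrays and 9.99, 10.53 and 9.51 on the diabetic arrays. In muscle it was 12.41, 12.73 and 12.47 on the healthy arrays and 12.81, 12.64 and 12.5 on the diabetic arrays. The groups were apart in aorta alone, where the log2 difference was 1.45 (adjusted P = 0.309), and over both tissues it was 0.78 ± 0.29 (SE; adjusted P = 0.151). Its aorta change was not called different from its muscle change after adjustment (difference 1.34, adjusted P = 0.547), nor was that of any other member in this comparison, while at an unadjusted P below 0.05 it was the 1 that was. The remaining higher calls were Ccl28, a mucosal ligand, with a log2 difference of 0.38 (adjusted P = 0.176) that came from muscle, since no diabetic or healthy aorta array read it above background, and the eotaxin Ccl24 with 0.78 (adjusted P = 0.226).

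Among the receptors, Ccr2, through which Ccl2 calls monocytes from the marrow, had a log2 difference of -0.33 (adjusted P = 0.181), but its probes disagreed. The probe above background on 28 arrays gave -0.82 and the one above background on 3 arrays gave 0.15. Other members fixed as a core of the family were not called. Ccl2 itself had a log2 difference of -0.29 (adjusted P = 0.8), and its mean log2 level ranged from 7.54 to 8.40 over the 14 sets. On healthy aorta it read 10.6, 6.9 and 7.39, so the highest value was again on healthy aorta 1. Fractalkine (Cx3cl1), the membrane-bound ligand of endothelium, had a log2 difference of 0.39 (adjusted P = 0.289), and its receptor Cx3cr1 had -0.24 (adjusted P = 0.347). Cxcr4 had a log2 difference of -0.37 (adjusted P = 0.474) and Ccl21a of -0.34 (adjusted P = 0.801). Cxcl1, a neutrophil ligand, was not tested because its probe passed the filter in neither group, and the same was true of all 7 genes of the neutrophil list.

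The tissues were also taken apart. In aorta alone 4 of 37 members were called (11.2% of all genes), Cxcl14 and Cxcl12 higher and Cxcl10 and Xcl1 lower, and none after adjustment. Xcl1, a ligand made by T and NK cells, was above background on no diabetic aorta array and at least 1.35-fold higher in healthy aorta, the 1 set through which it passed the filter. In muscle alone 12 were called (21.2% of all genes), 3 higher and 9 lower, and 3 passed after adjustment. All 3 diabetic arrays lay below all 3 healthy arrays for 4 of the 37 members in aorta (8.35% of all genes) and 10 in muscle (13.1%). They lay above them for 4 in aorta (10.5% of all genes) and 3 in muscle (17.0%). Both tissues showed this for 3 members that were lower, Cxcl10, Cxcl9 and Ccl4 (3.06% of all genes).

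Levels of white cell markers spread more widely over the healthy than over the diabetic arrays. Among the neutrophil, B cell, macrophage and T cell lists, the groups were apart only for the macrophage markers in muscle. Other lists were apart in muscle too. The mast cell markers had means of 8.24 to 9.41 in healthy and 7.87 to 8.09 in diabetic muscle. Platelet markers had means of 7.29 to 7.87 and 7.14 to 7.22, and thymus markers of 5.78 to 6.2 and 5.63 to 5.7. The mean log2 level of the neutrophil markers (5 of 6 on the array) ranged from 7.67 to 13.57 over the healthy aorta arrays and from 7.21 to 8.69 over the diabetic ones, and in muscle from 6.57 to 11.21 and from 6.95 to 7.99. That of the 6 B cell markers ranged from 6.43 to 10.3 and from 6.99 to 8.33 in aorta, and from 5.86 to 7.94 and from 6.1 to 6.19 in muscle. The 9 macrophage markers on the array were all above background in each set. Their mean was 8.51 to 9.84 in healthy and 8.14 to 8.21 in diabetic muscle, and 8.03 to 9.89 and 8.42 to 8.71 in aorta. The 7 T cell markers had means of 6.08 to 9.48 in healthy and 6.31 to 6.98 in diabetic aorta, and of 5.9 to 7.14 and 5.82 to 6.15 in muscle. The part of these cell types in the member differences was not tested. Without healthy aorta 1 and healthy muscle 3, the arrays of highest neutrophil marker level in their sets, 14 members were called and 5 passed after adjustment. The log2 differences were then 0.55 for Cxcl12, -1.46 for Cxcl10, -1.93 for Ccl5, -1.24 for Cxcl9 and -0.60 for Ccl9. The Ccl9 difference was thus smaller by over 1.5 times without these arrays, and it was still called.

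Single arrays decided which members passed after adjustment. The number was 0 without healthy aorta 3, diabetic aorta 2 or 3, or diabetic muscle 1 or 3. It was 1 without healthy muscle 1 or 3 or diabetic muscle 2, 5 without healthy aorta 1, and 6 without healthy aorta 2, where 20 members were called. With slide as a fixed block, which the aorta arrays allow, differences in aorta were 0.52 for Cxcl12, -2.53 for Cxcl10, -2.59 for Ccl5 and -2.19 for Cxcl9, and none of these was called. Healthy and diabetic muscle shared no slide and no scan day, so slide, scan day and group cannot be told apart in muscle. The split of calls was 2 higher and 9 lower on the processed signal of the scanner and 2 higher and 12 lower on the authors' values.

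To compare macroangiopathy with healthy mice, the same healthy arrays were used, so this comparison and the one before it are not independent. Cxcl9, Ccl9, Ccl5, Cxcl10, Ccl6, Ccl4, Cxcl16 and Cxcl13 were called lower, and Cxcl12 and Cxcl14 higher. Of 38 members 10 were called, close to the 24.3% of all genes, with 2 higher (14.7% of all genes) and 8 lower (9.54%). None passed after adjustment in limma's test, where 5.20% of all genes did. The median log2 difference was -0.43, against 0.03 for all genes. It was -0.72 on the processed signal, -0.74 on the authors' values and -0.22 without healthy aorta 1 and healthy muscle 3, and 6 of the 38 members passed the filter through 1 group alone.

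Ccl9 had the lowest P value. Its log2 level on the macroangiopathy arrays was 9.91, 9.6 and 9.54 in aorta and 9.11, 9.3 and 9.1 in muscle, against the healthy values given above. The groups were apart in muscle and overlapped in aorta. The log2 difference was -1.35 ± 0.35 (SE; adjusted P = 0.0504), and in muscle alone it was -1.81 (adjusted P = 0.041). Cxcl9 read 8.08, 7.65 and 9.35 in macroangiopathy aorta and 6.67, 6.81 and 6.88 in muscle on the log2 scale. Again the groups were apart in muscle alone. Its log2 difference was -1.71 ± 0.49 (SE; adjusted P = 0.066), with -1.54 in muscle alone (adjusted P = 0.0443). Cxcl12 had log2 levels of 10.95, 10.82 and 12.27 in macroangiopathy aorta and of 10.95, 10.73 and 10.63 in muscle. All 6 lay above the healthy arrays of their tissue (4.69% of all genes), as on the diabetic arrays. Its log2 difference was 0.79 ± 0.23 (SE; adjusted P = 0.071), with 0.52 on the brighter probe, where it was not called, and 1.06 on the other.

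Ccl5 had a log2 difference of -2.28 ± 0.75 (SE; adjusted P = 0.096) and of -2.55 in muscle. Macroangiopathy aorta 3 read 10.98 for Ccl5 where the other arrays of its set read 8.28 and 8.02, and the B cell markers of this set ranged from 6.81 to 9.39. Cxcl14 had a log2 difference of 0.73 ± 0.24 (SE; adjusted P = 0.0953), with 1.22 in aorta, where its macroangiopathy levels were 9.78, 10.07 and 9.5. The other lower calls had log2 differences of -1.06 (Ccl6), -1.56 (Cxcl10), -1.42 (Ccl4), -0.55 (Cxcl16, the ligand of Cxcr6) and -2.74 (Cxcl13). Ccl4 was above background on no macroangiopathy muscle array and at least 2.45-fold higher in healthy muscle, or at least 1.43-fold without healthy muscle 3. Ccl19 was above every healthy muscle array, at 12.51, 11.69 and 11.82, with a log2 difference of 2.07 (adjusted P = 0.0565).

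In aorta alone 3 members were called (18.4% of all genes), Cxcl12, Cxcl14 and Ccl27a, a skin ligand, all higher. The mean log2 level of the 5 smooth muscle markers ranged from 9.66 to 13.47 over the healthy and from 14.15 to 14.54 over the macroangiopathy aorta arrays, and that of the 5 fibroblast markers from 8.73 to 10.04 and from 10.17 to 10.2. Neither list overlapped between the groups, and their part in these calls was not tested. In muscle alone 12 were called (20.3% of all genes), 2 higher and 10 lower, and 2 passed after adjustment. The 3 macroangiopathy arrays lay below the healthy arrays for 11 of the 38 members in muscle (12.3% of all genes) and for none in aorta (11.5%). Without healthy aorta 1 and healthy muscle 3 there were 11 calls and 1 passed after adjustment, with log2 differences of -0.83 for Ccl9 and -1.57 for Ccl5. The number of calls was 18 without healthy aorta 2 (3 after adjustment, and 1 without healthy aorta 3), and 6 without healthy muscle 3 or macroangiopathy aorta 2. Healthy and macroangiopathy arrays shared no slide, so slide and group cannot be told apart in either tissue, nor scan day and group in muscle. With slide as a random block 6 members were called.

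**Figure D2:**
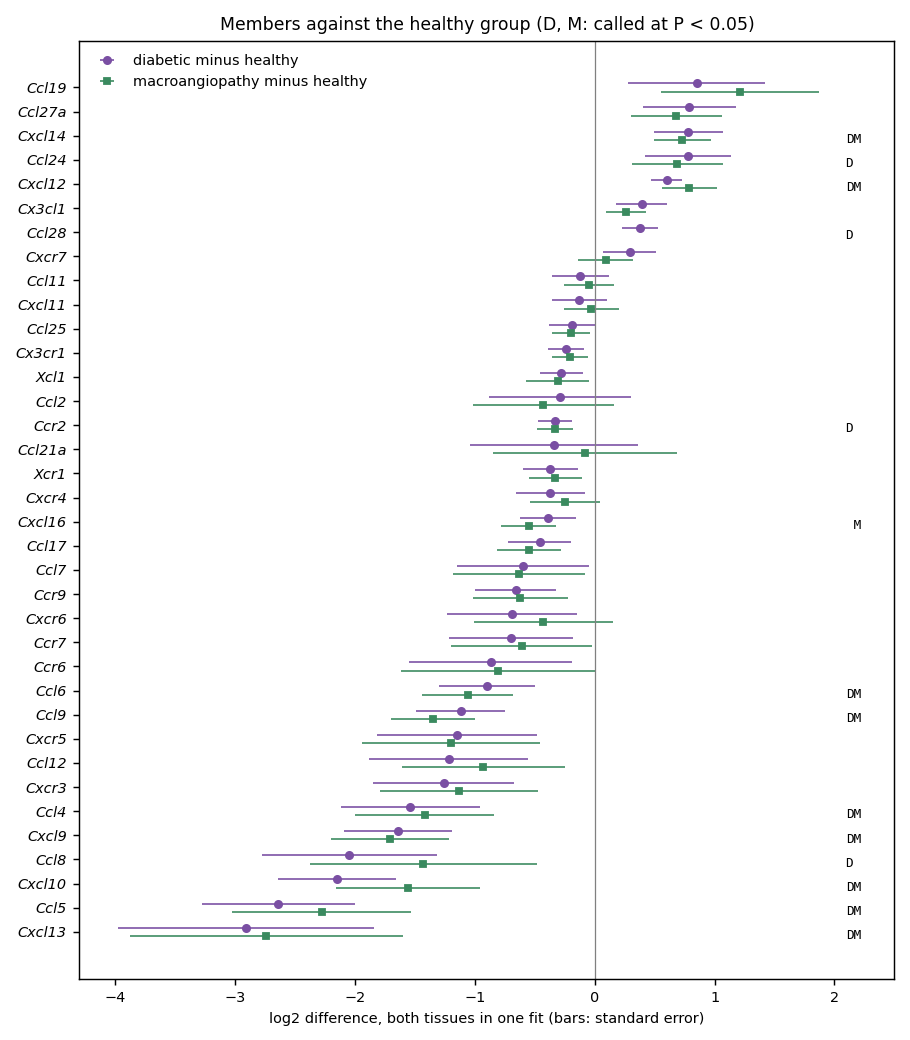
Log2 differences (x axis) of tested members (y axis) from healthy mice over 12 arrays, with purple circles for diabetic and green squares for macroangiopathy arrays, bars for the standard error, and the letters D and M for an unadjusted P value below 0.05. Cxcl12 stood at 0.60 and 0.79 and Ccl5 at -2.64 and -2.28, and both comparisons use the same healthy arrays.

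Lists of ligands by role, and of other genes of the pathway, were counted in the same fits. Of all genes 9.32% were called lower and 12.7% higher in diabetic arrays, and 9.54% and 14.7% in macroangiopathy. Of 13 inflammatory ligands tested in diabetic against healthy arrays, 7 were lower and none higher, with a median log2 difference of -1.12. Of 8 homeostatic ligands 3 were higher and 1, Cxcl13, lower, with a median of 0.49. Of 5 genes of the monocyte axis around Ccr2, 2 were lower, with a median of -0.60. Of the genes counted as called, Ccl4, Ccr2 and Ccl28 passed the filter only through the group where they were higher, which can force a difference on them. These counts are therefore a description. Against the same background of 0.03 for all genes, the medians in macroangiopathy were -0.99 (14 inflammatory ligands, 7 lower) and 0.68 (7 homeostatic ligands, 2 higher and 1 lower). Of 31 genes that carry the signal of chemokine receptors, 1 was higher and 3 lower in diabetic arrays, with a median of -0.26. Grk5, a kinase that switches receptors off, passed after adjustment with a log2 difference of -0.67 (adjusted P = 0.0345) in diabetic and -0.79 (adjusted P = 0.02) in macroangiopathy arrays. Of 13 cytokines and receptors that induce chemokines, Myd88 (-0.85) and Il6ra (-0.52) were lower in diabetic arrays and none was higher. Of 8 chemokine family genes outside the naming rule, 1 was called: Rarres2, the precursor of chemerin, was higher by 0.88 (adjusted P = 0.0991).

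To compare macroangiopathy with diabetic mice, which differ in diet and L-NAME, 38 members were tested and none was called at an unadjusted P below 0.05 in limma's test, against 5.14% of all genes. The median log2 difference of the members was 0.03 and that of all genes 0.00. Cxcl12 had a log2 difference of 0.19 ± 0.22 (SE), Ccl5 of 0.35 ± 0.42 and Ccl2 of -0.14 ± 0.12. With these standard errors a change of the sizes given could not be told from 0 at this number of arrays. In muscle alone 4 members were called (6.60% of all genes) and none after adjustment: Ccr9 at 0.28, Ccr6 at 0.28 and Cxcl10 at 0.69 were higher, and Ccl9 at -0.27 was lower. With slide as a fixed block in muscle, where SHENQI arrays link the slides, 6 members were called lower and none higher, and the median of the members was -0.24. The number of calls over both tissues was 3 without diabetic aorta 3, 2 without macroangiopathy aorta 3 and 1 without macroangiopathy aorta 2.

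The 4 treatments were each set against the macroangiopathy arrays, which these comparisons share. Few members were called over both tissues. With SHENQI none of 38 was (2.72% of all genes), none passed after adjustment, and 1 was without SHENQI aorta 1. In muscle alone Cxcl14 was called lower, at log2 levels of 12.54, 12.64 and 12.14 against 12.71, 12.82 and 12.81, with a difference of -0.34 that did not pass after adjustment. With slide as a fixed block in muscle, 3 members were called higher and none lower, so that call was lost. With yangyinyiqi 1 of 37 was called (3.41% of all genes), Cxcl1 at -0.27 ± 0.12 (SE; adjusted P = 0.999). The difference was -0.14 in aorta and -0.40 in muscle, where no array of either group read Cxcl1 well above background. It was not called with an offset of 50 (-0.08), on the processed signal (-0.44) or on the authors' values (-0.40). That call was lost in 8 of the 12 fits that left out 1 array: macroangiopathy aorta 3, macroangiopathy muscle 1 or 2, yangyinyiqi aorta 2 or 3, or any yangyinyiqi muscle array. Cxcl14 was higher in yangyinyiqi aorta alone, with a log2 difference of 0.56 that did not pass after adjustment.

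With huoxue 1 of 38 members was called over both tissues, below the share of all genes (14.3%). This was Cxcl1, whose log2 level in aorta was 6.17, 6.12 and 6.15 on the huoxue arrays and 6.15, 5.96 and 6.48 on the macroangiopathy arrays. In muscle it was 4.27, 4.39 and 4.74 on the huoxue arrays and 5.64, 5.54 and 5.3 on the macroangiopathy arrays. The aorta groups overlapped and none of the 6 muscle arrays was well above background, so no fold is given for muscle. The difference over both tissues was -0.54 ± 0.18 (SE; adjusted P = 0.233), and it was not called on the processed signal (0.22) or on the authors' values (-0.18). Its change differed between the tissues by 0.97 (adjusted P = 0.0458), the single member of 38 for which this was so, where 3.05% of all genes were.

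In muscle alone 15 of 38 members were called with huoxue, close to the 41.3% of all genes, and 9 passed after adjustment, close to the 25.7% of all genes. In aorta alone none was called, where 2.09% of all genes were. All 3 huoxue muscle arrays were on 1 slide that held no macroangiopathy array, so slide and treatment cannot be told apart there. Cxcl12 read 10.29, 10.16 and 10.18 in huoxue muscle against 10.95, 10.73 and 10.63 in macroangiopathy muscle on the log2 scale. Every huoxue array was lower, by a mean of -0.56 ± 0.10 (SE; adjusted P = 0.0104). Its receptor Cxcr4 read 6.05, 5.9 and 5.85 against 6.46, 6.31 and 6.35. Cxcr4 was above background on no huoxue muscle array and at least 1.21-fold higher in macroangiopathy muscle (adjusted P = 0.0137). Cxcl13 went the other way, at 7.18, 7.3 and 6.94 against 5.63, 6.57 and 6.3, a log2 difference of 0.98 ± 0.23 (SE; adjusted P = 0.0235), with 1 of the 3 macroangiopathy arrays above background. Of the other members that passed, Cxcl14 (-0.37) and Ccl11 (-0.43) were measured in both groups. Cxcr6 (at least 1.52-fold), Cxcl10 (at least 1.25-fold) and Ccr6 (at least 1.13-fold) were lower and above background on no huoxue muscle array, and Cxcl1 was so in neither group.

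With rosiglitazone 2 of 37 members were called (12% of all genes), Xcr1 higher and Cxcl1 lower. Xcr1, the receptor of Xcl1 and a marker of cross-presenting dendritic cells, had log2 levels of 6.41, 6.79 and 6.7 in rosiglitazone muscle and of 6.01, 6.08 and 5.72 in macroangiopathy muscle. In aorta its log2 levels were 6.23, 6.13 and 6.06 with rosiglitazone and 5.87, 5.85 and 6.51 without. The muscle groups were apart and the aorta groups overlapped. The log2 difference was 0.38 ± 0.16 (SE; adjusted P = 0.367), with 0.70 in muscle alone (adjusted P = 0.0356) and 0.06 in aorta. No rosiglitazone muscle array shared a slide with a macroangiopathy muscle array, and arrays 2 and 3 were scanned on another day, so slide and treatment cannot be told apart in muscle. It was 0.10 on the processed signal and 0.16 on the authors' values, and called on neither. It was also lost without macroangiopathy aorta 1 or 2, without any macroangiopathy muscle array, and without rosiglitazone muscle 2 or 3. Cxcl1 had a log2 difference of -0.25 ± 0.11 (SE; adjusted P = 0.414) and was above background in muscle of neither group. That call was lost when any 1 array was left out other than macroangiopathy aorta 1 or 2 or rosiglitazone aorta 2 or 3.

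In muscle alone 8 of 37 members were called with rosiglitazone (27.2% of all genes), 3 higher and 5 lower, and 2 passed after adjustment (6.41% of all genes), so neither count exceeded the background. The second that passed was Cxcl13, at 7.72, 6.94 and 7.7 against 5.63, 6.57 and 6.3, a log2 difference of 1.29 ± 0.29 (SE; adjusted P = 0.0486), under the same limit of slide. In aorta alone no member was called, where 7.04% of all genes were. Of 32 genes of receptor signalling, 3 were called with rosiglitazone over both tissues, where 12% of all genes were, so the count did not exceed the background. These were Plcb3 (-0.32), Gnai2 (-0.36) and Adrbk1 (-0.40), all lower, and none passed after adjustment. Of 13 cytokines and receptors that induce chemokines, 1 was called with huoxue (14.3% of all genes) and 1 with rosiglitazone (12%). Both calls were Ltbr, a receptor that induces homeostatic ligands, lower with huoxue (-1.63, adjusted P = 0.242) and with rosiglitazone (-0.76, adjusted P = 0.366). It was called higher in macroangiopathy than in healthy arrays (1.12, adjusted P = 0.107). None of these passed after adjustment, and all use the same macroangiopathy arrays, so they are not independent. No gene of its list of cytokines and receptors was called in macroangiopathy against diabetic arrays, with SHENQI or with yangyinyiqi.

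**Figure D3:**
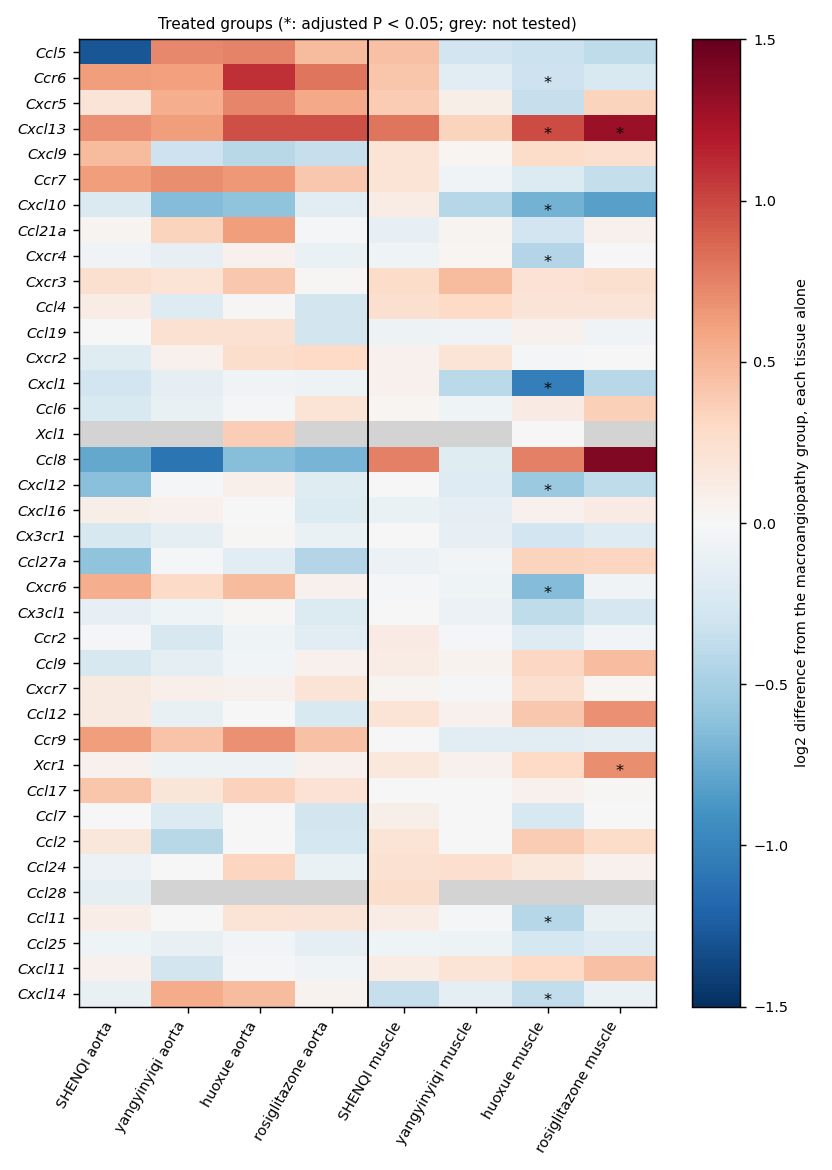
Log2 difference of each treatment from macroangiopathy for tested members (rows) in aorta and in muscle taken alone (columns), with colours that end at 1.5 in either direction, a star for an adjusted P value below 0.05 and grey where a member was not tested. The stars stood in muscle alone, 9 with huoxue and 2 with rosiglitazone, and the 3 huoxue muscle arrays shared a slide.

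To compare the tissues, all 42 arrays were fitted with group as a term. After adjustment 29 of 39 members differed, 23 of them higher in aorta (40.2% of all genes) and 6 lower (36.3%). Of the 11 slides 1 held arrays of both tissues, so tissue and slide can hardly be told apart. With slide as a random block 17 members were higher in aorta (36.5% of all genes), as were 17 on the processed signal (36.8%), both nearer the share of all genes. The median log2 difference was 0.42 against 0.03 for all genes. Cxcl14 stood out on the muscle side. Its log2 level ran from 7.81 to 11.91 over the 21 aorta arrays, with a median of 9.99, and from 12.14 to 13.09 over the 21 muscle arrays, with a median of 12.57. No aorta array reached a muscle array, and it was 7.02-fold higher in muscle (log2 difference -2.81 ± 0.18 SE; adjusted P = 2.19e-16). It was also the 1 member that passed on the 6 healthy arrays alone (-3.98, adjusted P = 0.00265).

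Ccl25, the ligand of Ccr9 known from thymus and gut, had log2 levels of 6.35 to 7.40 in aorta (median 6.69) and of 7.63 to 8.45 in muscle (median 7.94), again with no overlap. It was 2.37-fold higher in muscle. Cxcl11, the third ligand of Cxcr3, had median log2 levels of 6.68 in muscle and 5.48 in aorta. It was above background on 20 muscle arrays but on 3 aorta arrays, so its log2 difference of -1.29 is against background, and it was -3.09 on the processed signal and -2.91 on the authors' values. The eotaxins, which draw eosinophils, were on the same side, with Ccl11 2.04-fold and Ccl24 1.54-fold higher in muscle. Ccl28, above background on 14 muscle and 3 aorta arrays, had a log2 difference of -0.83, which was -2.60 on the processed signal and -2.34 on the authors' values.

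On the aorta side the largest differences belonged to Ccl5, Ccr6, Cxcr5, Cxcl13 and Cxcl9. Ccl5 had a median log2 level of 8.66 over 20 aorta arrays (from 7.23 to 13.71, with SHENQI aorta 2 missing through a flagged spot) and of 6.60 over the muscle arrays (from 6.25 to 10.30). It was 5.22-fold higher in aorta (log2 difference 2.39 ± 0.43 SE; adjusted P = 6.14e-06). The B cell receptors followed. Ccr6, above background on 21 aorta and 9 muscle arrays, had a log2 difference of 1.91, and Cxcr5, above background on 18 and 2, had one of 1.55, so both are against background in part. On the processed signal they were 2.81 and 2.72, and on the authors' values 2.81 and 2.96. Cxcl13 was 2.89-fold higher in aorta, a call that was lost with slide as a random block (log2 difference 1.34, adjusted P = 0.0534), and Cxcl9 was 2.67-fold higher. For all 5 the ranges of the tissues overlapped. Among core members the log2 difference was 0.89 for Cxcr4, 0.72 for Cxcl1, 0.39 for Cx3cr1 and -0.18 for Ccl2, of which that of Ccl2 did not pass (adjusted P = 0.454). Cxcl12 differed by 0.53, with probes at -0.09 and 1.14, those of Cx3cl1 (0.23) at 0.57 and -0.11, and those of Ccr2 (0.21) at 0.58 and -0.16, so for these 3 genes the tissue difference turned on the probe. Of 32 genes of receptor signalling 27 were higher in aorta and 3 lower, with a median log2 difference of 0.68.

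**Figure D4:**
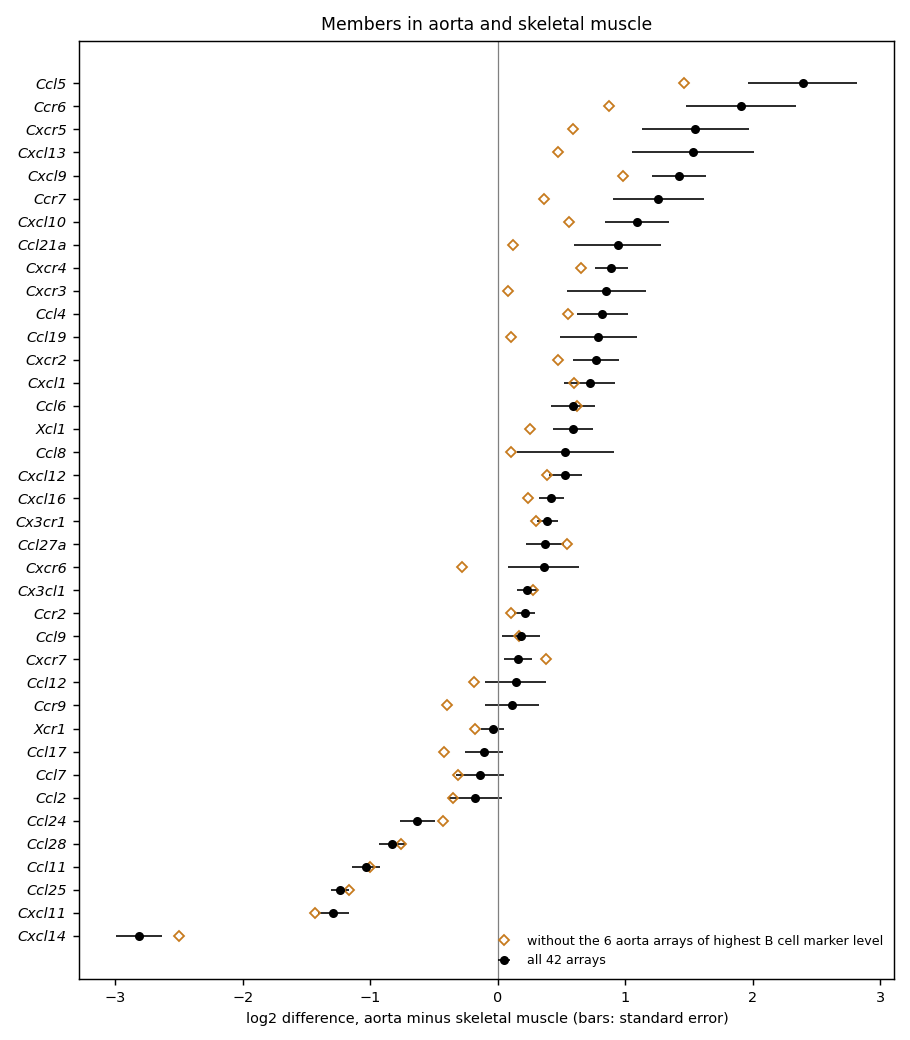
Log2 difference of aorta from skeletal muscle (x axis) for tested members, with black points for all 42 arrays, bars for the standard error, and orange diamonds for the fit without the 6 aorta arrays of highest B cell marker level. Cxcl14 stayed near the left end at -2.50, while Ccr6 moved from 1.91 to 0.87 and Cxcl13 from 1.53 to 0.47.

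Aorta arrays differed among themselves more than muscle arrays in the members that act in lymphoid tissue. The 6 aorta arrays of highest mean B cell marker level were healthy 1, macroangiopathy 3, SHENQI 2, yangyinyiqi 2, huoxue 2 and rosiglitazone 1, so 6 of the 7 groups held 1 such array. For 10 of the 39 members (3.02% of all genes) the 6 highest aorta arrays were exactly these 6: Ccr6, Cxcl13, Cxcr5, Ccr7, Ccl21a, Cxcr3, Ccl19, Xcl1, Ccl17 and Cxcr2. Ccr6 had a median log2 level of 10.89 on the 6 arrays and of 6.91 on the other 15. The pair Cxcl13 and Cxcr5, which forms B cell follicles, had medians of 11.12 and 9.77 on the 6 arrays and of 7.39 and 6.06 on the other 15. Of the T cell zone set, Ccr7 had medians of 9.77 and 6.29, Ccl21a of 14.01 and 11.11, and Ccl19 of 14.25 and 11.85. Cxcr3 had medians of 9.61 and 6.86. Members and markers were read on the same arrays, and the arrays were chosen by the markers, so these are descriptions.

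A further 8 members, among them Ccl5, Cxcl9, Cxcl10 and Cxcr4, had 5 of their 6 highest aorta arrays in that set. For Ccl5 5 was the most possible, since it had no value on SHENQI aorta 2. Its 5 measured arrays there, from 10.98 up, lay above the other 15, which reached 10.62. Another 5 members had none of their 6 highest aorta arrays in that set. These were Cx3cl1, Ccl25, Ccl24, Cxcr7 and Cxcl14, of which Cxcl14 had a median log2 level of 8.87 on the 6 arrays and of 10.07 on the other 15. Rag1, 1 of the 7 thymus markers, was above background on none of the 21 aorta arrays. The mean log2 level of the 7 was 7.04 on healthy 1, 5.59 on macroangiopathy 3 and 6.17 on SHENQI 2. On yangyinyiqi 2, huoxue 2 and rosiglitazone 1 it was 6.02, 6.02 and 5.96, and on the other 15 it ran from 5.33 to 6.05. Whether thymus tissue was part of these samples was not tested. Without the 6 arrays 28 members differed between the tissues, 19 higher in aorta and 9 lower, and they were not all the same members. Cxcl13, Ccl19, Ccl21a, Cxcr3 and Ccr2 no longer passed, while Ccl17, Ccr9, Xcr1 and Cxcr7 now did. The log2 differences of Ccr6 (0.87), Cxcr5 (0.59), Cxcl13 (0.47, adjusted P = 0.178), Ccl19 (0.10) and Ccl21a (0.12) shrank, and that of Ccl5 fell from 2.39 to 1.46. In diabetic against healthy arrays, leaving out the 6 removed healthy aorta 1 alone, and in macroangiopathy against healthy arrays it removed healthy aorta 1 and macroangiopathy aorta 3. The leading members kept their direction in these fits. Then 12 members were called in diabetic arrays and 5 passed after adjustment, with log2 differences of 0.63 for Cxcl12, -1.68 for Cxcl10 and -2.07 for Ccl5. In macroangiopathy against healthy arrays 13 were called and 4 passed.

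**Figure D5:**
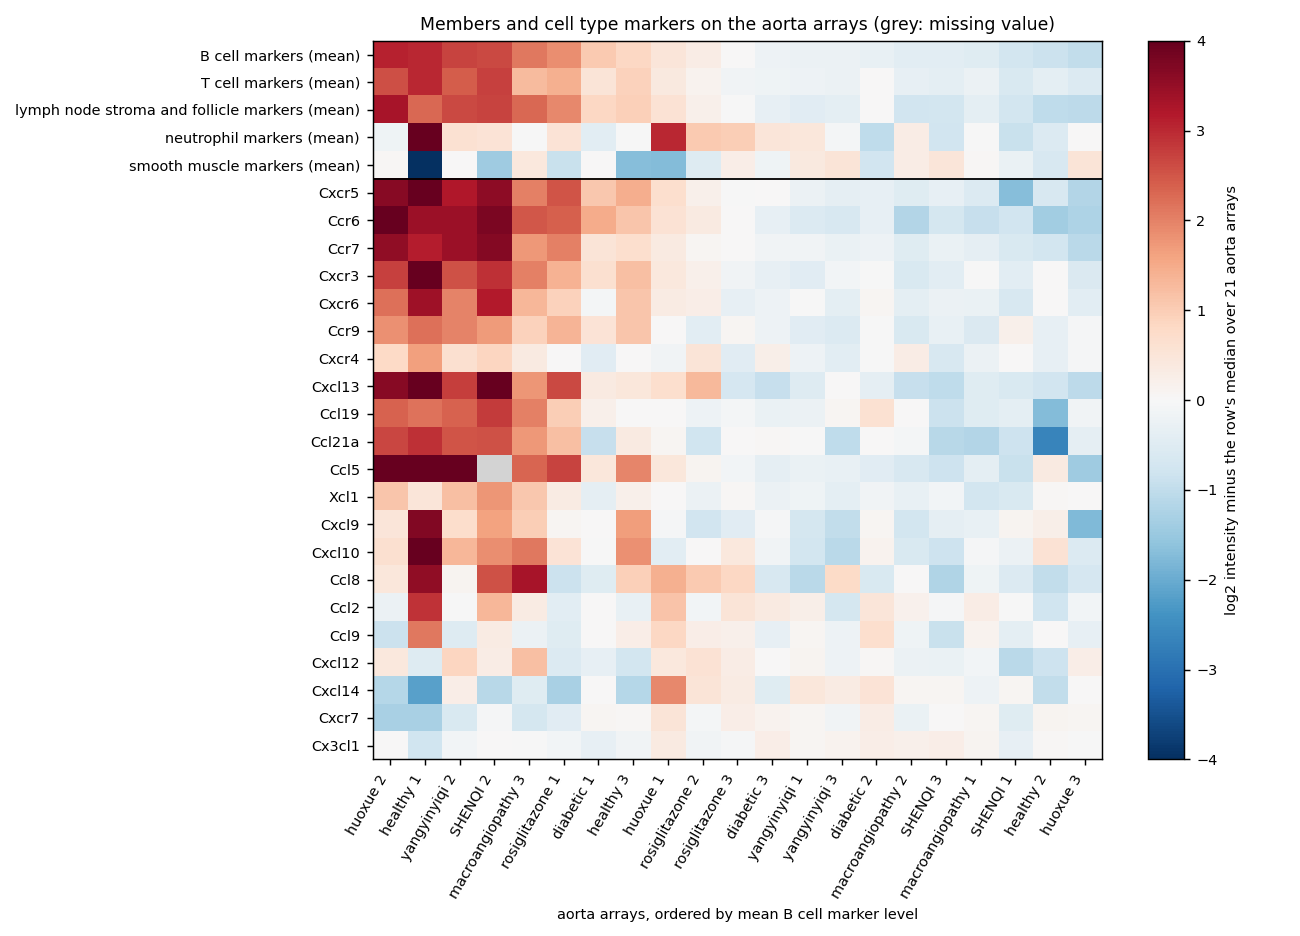
The 21 aorta arrays (columns, ordered by mean B cell marker level) with the mean of 5 marker lists and 21 members (rows), each shown as the log2 level minus the median of its row, with colours that end at 4 in either direction and grey for a missing value. The 6 arrays of highest B cell marker level were high in Ccr6, Cxcl13, Cxcr5, Ccr7, Ccl21a and Ccl19, and 5 of them, all but yangyinyiqi 2, were low in Cxcl14.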

How the data were processed

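Total RNA of aorta and skeletal muscle was labelled with Cy3 by the authors and hybridized to 42 Agilent 4x44K mouse arrays, 1 per sample, which lie on 11 slides. The deposited scanner output, made with Agilent Feature Extraction 10.7 per the submitters' processing notes, gives the spot and local background intensity of 45018 spots per array. A value table on the log2 scale, which the authors deposited beside it, has equal quantiles in its 42 columns.

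The median intensity was background corrected with normexp (offset 0) in limma 3.58.1 (R 4.3.3, data.table, version 1.17.8), and control spots were removed. Log2 followed, then quantile normalization over all arrays. Flagged spots (0.118 to 0.258 percent of an array) were set to missing, which removed 2 member values: Ccl5 on SHENQI aorta 2 and Ccr1, a member that was not tested, on macroangiopathy aorta 2. Spots were averaged to 41174 probes and 34891 probes with a symbol to 21186 genes. A gene entered a test if the 3 arrays of some set compared all had a probe of it marked well above background.

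The 7 comparisons were fitted with lmFit and eBayes over 12 arrays with tissue as a term, and changes that differ between tissues with an interaction term. The tissues were compared over 42 arrays with group as a term. Calls were made at P below 0.05, as in the study's methods, and apart at a Benjamini-Hochberg adjusted P below 0.05 over all genes. Bounds on folds cover arrays where a probe was not above background, and the number of arrays limits the precision. The fits were tested on simulated data.

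The members and the lists were chosen with earlier results of these data known. Results of 1 member, which stays in the counts, are not reported here. Genes named were 12 core members, in each comparison those that passed after adjustment and the 5 called members of lowest P, the 5 largest tissue differences each way, called members whose probes disagree, and members above background in no set. Other names (Ccl8, Ccl28, Ccl6, Ccl24, Ccl4, Cxcl16, Ccl27a, Xcl1, the calls in 1 tissue alone, and called genes of the lists) were chosen after their values were seen, as were the 2 fits without arrays of high marker levels and the bounds without healthy muscle 3. No steady pairing of same-numbered arrays was seen, so replicate number was not a block in the main fits. Alternatives are listed with their effect in the closing section. Figures were drawn with matplotlib 3.10.9 and pandas 2.3.3 in Python 3.11.15.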

Additional observations from a re-analysis of the deposited data

Results flagged for a closer look

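With huoxue, the change of Cxcl1 in aorta exceeded that in muscle by 0.97 on the log2 scale (limma interaction, adjusted P = 0.0458), and a difference between the tissues in the same contrast drew attention to it. None of the 6 muscle arrays of this contrast read Cxcl1 well above background, and the 3 huoxue muscle arrays shared a slide. The difference was 0.18 with an offset of 50, -0.25 on the processed signal and 0.30 on the authors' values, and in none of these was it called.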

How the results depend on the processing

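Calls at adjusted P below 0.05 were few and moved with the setting. In diabetic against healthy arrays (3) there were 1 with an offset of 50 and 11 in a fit of all 42 arrays. Aorta alone gave 4 calls and 0 after adjustment, and with slide as a fixed block in aorta 2 and 0. In macroangiopathy against healthy arrays (0 after adjustment) there were 3 on the processed signal, 2 on the authors' values, 1 on the brightest probe of a gene, 9 in the fit of all arrays and 2 in muscle alone. Its 10 calls became 6 with slide as a random block and 3 in aorta alone. In macroangiopathy against diabetic arrays (0 calls) there was 1 without the filter, 4 in muscle alone (3 higher) and 6 there, all lower, with slide as a fixed block.

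For treatments, SHENQI (0) gave 1 call, lower, in muscle alone and 3, all higher, there with slide fixed. Yangyinyiqi (1) gave 0 with offset 50, in the fit of all arrays and in aorta with slide fixed, 2 on the processed signal and in muscle alone, with or without slide fixed, and 3 without the filter. Huoxue (1) gave 0 on the processed signal, on the authors' values, in the fit of all arrays and in aorta alone, with or without slide fixed, and 15 in muscle alone (9 after adjustment). Its 1 call between tissues became 0 with offset 50, on the processed signal, on the authors' values and with the replicate block. Rosiglitazone (2) gave 1 on the processed signal, on the authors' values, in the fit of all arrays, with slide random and with the replicate block, 4 on the brightest probe, 0 in aorta alone, with or without slide fixed, and 8 in muscle alone (2 after adjustment). On the 6 healthy arrays alone 1 member differed between tissues, where 29 did over all arrays.

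Of the members followed by name over all settings, Cxcl1 alone changed sign. With slide fixed in aorta its log2 difference was 0.17 for yangyinyiqi, 0.42 for huoxue and 0.38 for rosiglitazone, and on the processed signal it was 0.22 for huoxue, with a difference between tissues of -0.25. In rosiglitazone aorta, where none was called, 21 members were lower and 16 higher, and 6 and 31 with slide fixed. The cause was not tested.

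Settings chosen after seeing the data left out arrays. Without the 6 aorta arrays of highest B cell marker level, calls were 2 (macroangiopathy against diabetic), 5 (huoxue) and 7 (rosiglitazone), and adjusted calls 5 (diabetic against healthy) and 4 (macroangiopathy against healthy). Without the arrays of highest neutrophil marker level, adjusted calls were 5 and 1 in the latter 2. Both settings leave out healthy aorta 1, so they are not separate checks. In diabetic against healthy arrays it is the only array that the B cell setting removes.

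Leaving out each array in turn gave 10 to 20 calls and 0 to 6 after adjustment in diabetic against healthy, 6 to 18 and 0 to 3 in macroangiopathy against healthy, 0 to 3 in macroangiopathy against diabetic, 0 to 1 with SHENQI and with yangyinyiqi, 1 to 5 with huoxue (0 to 2 between tissues), 0 to 3 with rosiglitazone, and 28 to 30 between the tissues. With huoxue there were 5 calls without huoxue aorta 1, 3 without huoxue aorta 2, and 2 without huoxue aorta 3 or macroangiopathy aorta 2. Its call between tissues was lost without any 1 array but macroangiopathy aorta 3, where there were 2, and huoxue muscle 3. With rosiglitazone there was none without any macroangiopathy muscle array or rosiglitazone muscle 3, and 1 without rosiglitazone muscle 2.

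Replicate numbers did not pair arrays: correlations of same-numbered deviations ran from -0.52 to 0.59 over 14 checks between groups and from -0.36 to 0.18 over 7 between tissues. With the replicate number as a block there were 14 calls and 4 after adjustment in diabetic against healthy, and 11 and 0 in macroangiopathy against healthy. Dim signal limits Cxcl1, Cxcl10, Ccl4 and most receptors in muscle.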
